A study of Mus musculus with 96 samples.

Results

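Potassium channel genes were described in the striatum of Huntington's disease knock-in mice. Their members were all genes whose mouse symbol begins with Kcn and whose mean level over the 96 libraries was at least 0.5 CPM, the read count scaled to library size. Of 98 such symbols among the 39179 genes of the deposited table, 81 met the threshold and 17 did not. The member nearest above it was the antisense transcript Kcnd3os, at 0.514 CPM, and the gene nearest below it was Kcne2, at 0.499 CPM. They comprised 15 voltage-gated subunits of the Kcna, Kcnb, Kcnc and Kcnd subfamilies, 9 subunits known as silent because they work only in mixed channels (Kcnf, Kcng, Kcns, Kcnv), 8 Kcnh, 4 Kcnq, 13 inward rectifiers (Kcnj) and 10 tandem-pore channels (Kcnk). The rest were 10 genes grouped with calcium- or sodium-activated channels (Kcnma, Kcnmb, Kcnn, Kcnt, Kcnu), 9 partners of voltage-gated channels (Kcnab, Kcnip, Kcne) and 3 others. Kcnu1 is in the first of these groups although its channel is not opened by calcium or sodium.

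The mice were C57BL/6 and heterozygous for a knock-in allele with a CAG length label of 20, 50, 92 or 140, or they were wild types. Each of these groups was sampled at 6 and at 10 months, with 4 females and 4 males in each. A first wild-type group was housed with Q20 mice and another with Q50 mice, so 16 wild types were sampled at each age, and no wild types housed with Q92 or Q140 mice were analysed here. A difference of Q92 or Q140 mice from wild types therefore cannot be told apart from a difference in housing. A knock-in allele is inherited, so every cell type of these mice carries it. The labels do not state that the 8 libraries of a group came from separate animals, so the p-values measure the spread between these libraries. Library totals ran from 32145875 to 40189023 counts at 6 months and from 29092817 to 36381396 counts at 10 months. At 10 months 2 Q20 libraries (F4 and M4, named by sex and replicate) and 1 Q92 library (F1) stood apart, with levels of shared projection neuron markers of 7.16, 7.60 and 7.98 log2 CPM, under 8.5, and thalamus gene levels of 6.98, 7.41 and 6.98. Counts at 10 months are also given without these libraries, with values of members whose calls differed.

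Potassium channels let potassium ions leave a cell and so hold its membrane at a negative voltage, end each action potential and set how readily the next begins. Striatal projection neurons rest far below their firing threshold because inward rectifiers are open at rest. Voltage-gated channels of the Kcna and Kcnd subfamilies delay their spikes, and Kcnq channels, which carry the M-current, are closed by acetylcholine acting on muscarinic receptors. Fast-spiking neurons and thalamic relay neurons instead carry Kcnc channels, which close quickly and allow rapid firing, and astrocytes clear potassium through Kcnj10.

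The pore-forming members share a selectivity filter, a short stretch of residues that strips water from the potassium ion. Its pattern was searched as threonine or serine, any residue, glycine, tyrosine or phenylalanine, and glycine, or with leucine in the fourth place after a leading threonine. It was found in 66 of the 79 members with a complete coding sequence in the GENCODE M21 transcripts. It occurred once in all 15 Kcna to Kcnd genes, all 9 silent subunits, all 8 Kcnh, all 4 Kcnq, all 13 Kcnj and 7 of 10 genes of the activated-channel group, and more than once in all 10 Kcnk genes, whose subunits hold tandem pores. None of the 9 partner genes had it. The 8 Kcnh genes have phenylalanine where the Kcna to Kcnd and Kcnq genes have tyrosine. The filter codons are given for some members that changed in Q140 mice, in capitals, with 9 bases of coding sequence on either side, so that the family differences behind these names can be seen.
Kcnd2: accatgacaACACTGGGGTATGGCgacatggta
Kcng1: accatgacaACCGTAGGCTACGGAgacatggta
Kcnh4: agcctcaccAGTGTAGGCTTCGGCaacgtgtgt
Kcnh5: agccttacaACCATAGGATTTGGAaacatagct
Kcnk2, first pore: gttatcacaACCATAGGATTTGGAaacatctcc
Kcnk2, second pore: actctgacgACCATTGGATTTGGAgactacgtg

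In wild types the level per gene length (FPKM, as deposited) was highest for partner genes. Kcnab1, whose protein is a cytoplasmic beta subunit of Kcna channels, stood at 134 ± 13.3 FPKM and Kcnip2, which binds Kcnd channels and raises their surface level, at 124 ± 17 (mean and SD, 32 wild-type libraries). Their ranges, 104 to 164 and 89.9 to 154 FPKM, overlapped. The sodium-activated channel Kcnt1 had 79.8 ± 8.67 FPKM and the inward rectifier Kcnj4 at 63.3 ± 8.13. Astrocytic Kcnj10 had 43.6 ± 8.46 FPKM and Kcnd2, which carries the A-type current, 40.5 ± 3.29. The leading tandem-pore channel was Kcnk1 at 36.9 ± 1.93, close to Kcnk2 at 35.5 ± 4.36, and the leading Kcnh gene was Kcnh3 at 31.8 ± 4.86. Kcna1 (32.6 ± 2.94 FPKM) and Kcnc1 (35.7 ± 7.61) led their subfamilies. In all, 30 members had a mean over 10 FPKM and 17 a mean under 1. The lowest, Kcnh8, had 0.18 ± 0.0423 FPKM.

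**Figure D1:**
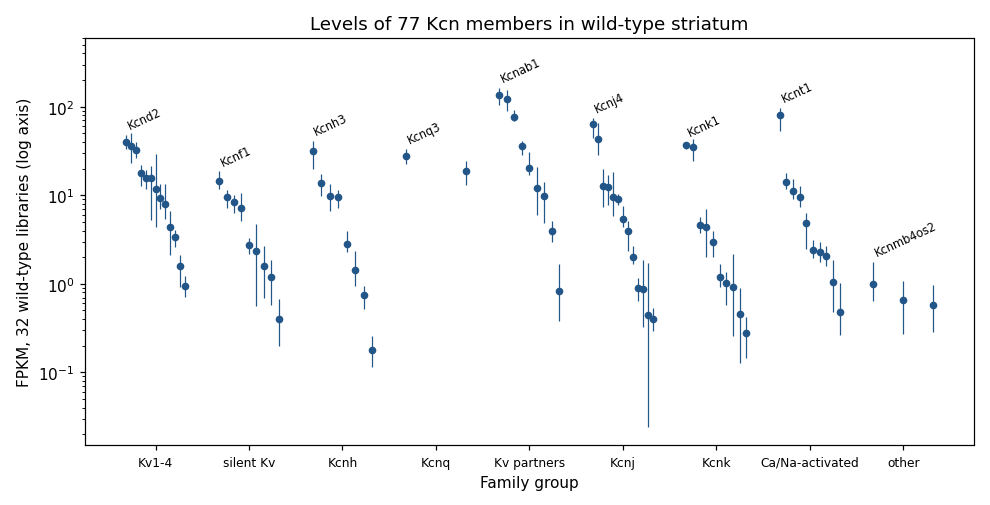
Mean FPKM of 77 of the 81 members over 32 wild-type libraries on a log axis, by family group, with bars from the lowest to the highest library. The highest gene plotted in each family group is named, and Kcnab1 at 134 FPKM is the highest of all.

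The design compares these levels between CAG lengths. In Q140 mice, 28 of 81 members passed the test at 6 months (9 higher and 19 lower), which is 34.6%, against 23.7% of the 17339 genes tested. At 10 months 22 members passed (5 higher and 17 lower), or 27.2%, against 19.2% of 17285 genes. By direction, 11.7% of all genes were higher and 12% lower at 6 months, and 10.8% and 8.45% at 10 months. The higher members were therefore no larger a share than among all genes, and the lower members were a larger one. The test was edgeR's quasi-likelihood test with Benjamini-Hochberg adjustment over all genes and a threshold of 0.05, and "fell", "rose" and "called" refer to it. Of the 36 members called at either age, 9 fell at both, among them Kcnab1, Kcnb2, Kcnd2, Kcnh4, Kcnh5, Kcnip3, Kcnk1 and Kcns1, and 5 rose at both, among them Kcng1, Kcnh8, Kcnrg and Kcnu1. No member was called in opposite directions. How many of all genes were called at either age, at both or in opposite directions is not given here. These counts therefore describe the members alone. Without the 3 libraries that stood apart at 10 months, none of them Q140 or wild type, 37 members passed at that age. The 15 that passed only then were all lower, with differences that moved little and smaller errors, and included Kcnj4 (-0.26 ± 0.0808 SE, adjusted p = 0.0166), Kcnip2 (-0.30 ± 0.0906, 0.0115), Kcnk2 (-0.31 ± 0.0746, 0.00177), Kcnq5 (-0.37 ± 0.0708, 8.76e-05), Kcnt1 (-0.24 ± 0.0558, 0.00117), Kcnj10 (-0.30 ± 0.0913, 0.0118), Kcnma1 (-0.23 ± 0.0813, 0.0311), Kcnc1 (-0.30 ± 0.0999, 0.0229), Kcnc2 (-0.85 ± 0.307, 0.0385) and Kcns2 (-0.22 ± 0.0741, 0.0281). The share of all genes that passed without those 3 libraries is not given here, so the 37 cannot be set against it. The values given further on are from the fit of all libraries. The median log2 fold change of the 81 members was 0.0023 at 6 months and -0.215 at 10 months, against 0.0079 and 0.0053 for all genes. In bulk tissue, fewer cells of a type and less RNA per cell cannot be told apart.

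**Figure D2:**
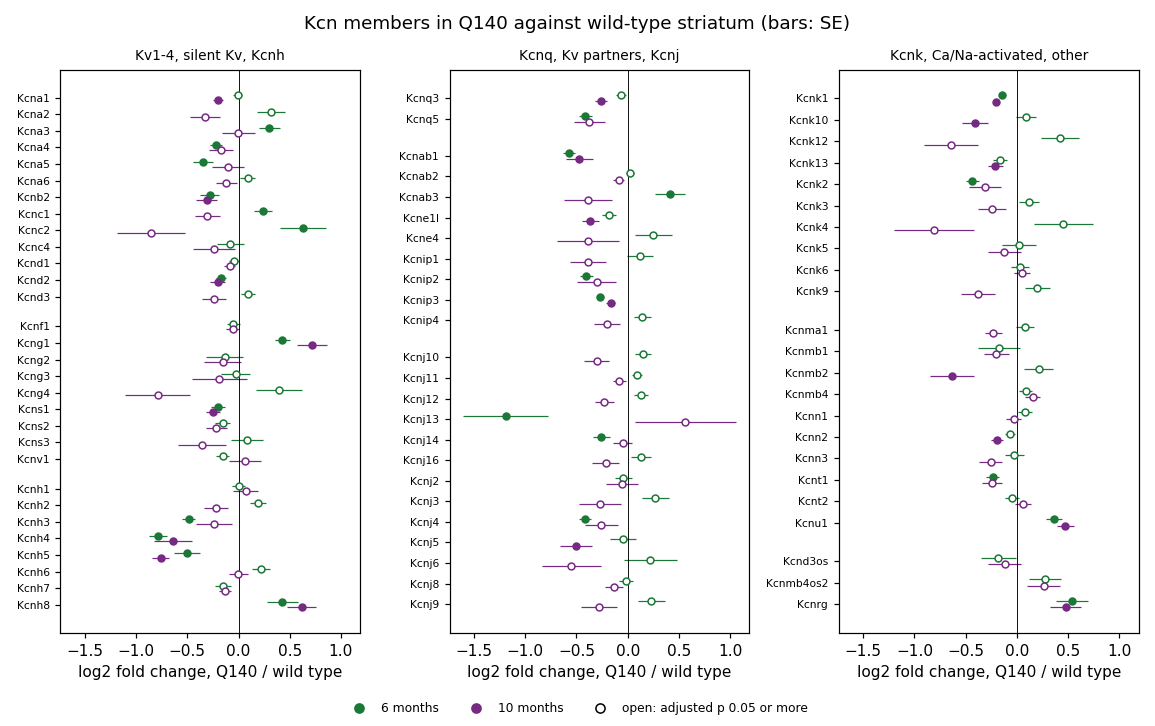
Log2 fold change of 77 of the 81 members in Q140 against wild-type striatum at 6 and 10 months, with bars for 1 standard error, by family group. Filled points passed the test, and Kcnh4, Kcnh5 and Kcnab1 lie left of 0 at both ages.

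Markers of striatal projection neurons fell in the same mice. All 12 shared projection neuron markers fell at 6 months and 6 of 12 at 10 months, led by Arpp21 (-0.86 ± 0.0633 SE, adjusted p = 1.5e-14) and Ppp1r1b (-0.63 ± 0.0633, adjusted p = 1.26e-10, both at 6 months). The mean level of that list had lowest, median and highest libraries of 8.63, 8.997 and 9.15 log2 CPM in Q140 mice at 6 months, against 9.22, 9.37 and 9.70 and 9.43, 9.55 and 9.68 in the wild types housed with Q20 and Q50 mice. At 10 months the levels were 8.67, 8.94 and 9.18 in Q140 mice and 8.98, 9.40 and 9.64 and 9.12, 9.45 and 9.73 in the wild types. Of 5 tested indirect pathway markers 4 fell at 6 months and 3 at 10 months (Penk, -1.06 ± 0.062, adjusted p = 1.22e-17, and Gpr6, -0.75 ± 0.0671, adjusted p = 7.6e-12, at 6 months). Of 6 direct pathway markers 2 rose and 3 fell at 6 months and 2 rose and 2 fell at 10 months. None of 8 striatal interneuron, 10 microglia or 10 choroid plexus markers was called at either age. Of 10 cortical projection neuron markers 1 rose and 3 fell at 6 months, and of 10 astrocyte markers 1 rose and 2 fell at 6 months and 5 fell at 10 months. At 10 months 3 of 10 oligodendrocyte, 1 of 6 precursor and 4 of 11 vessel markers fell as well, and at 6 months 0, 1 and 0. Fits with the choroid plexus level, and with the cortex level beside that of a thalamus list, are described further on. The part of the other cell type levels in the potassium channel results was not tested.

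Among the partners of voltage-gated channels, Kcnab1 fell the most. Its lowest, median and highest libraries were 373, 447 and 525 CPM in the 16 wild types and 248, 303 and 337 in Q140 mice at 6 months. All 8 Q140 libraries lay below every wild type at 6 months, and 7 of 8 did so at 10 months, when wild types had 335, 425 and 541 CPM and Q140 mice 281, 309.5 and 336. The log2 fold change was -0.57 ± 0.0593 (SE, adjusted p = 3.36e-10) at 6 months and -0.47 ± 0.134 (SE, adjusted p = 0.00989) at 10 months. Kcnip2 had 269.7, 334 and 406 CPM in wild types and 219, 244 and 303 in Q140 mice at 6 months, so that 6 of 8 Q140 libraries lay below every wild type. Its log2 fold change was -0.41 ± 0.0628 (SE, adjusted p = 2.54e-06). At 10 months wild types had 227, 316 and 408 CPM and Q140 mice 194, 255 and 298, the groups overlapped and the difference of -0.30 did not pass (adjusted p = 0.275).

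Kcnip3, a calcium-binding protein of the same family that also acts as a transcriptional repressor, changed less but at both ages. Wild types had 87.8, 108 and 115 CPM at 6 months and 78.8, 92.6 and 103 at 10 months. Q140 mice had 80.8, 87 and 96.7 and 75, 81.7 and 88.7, with overlapping groups and every Q140 library under the wild-type median. The log2 changes were -0.27 ± 0.0377 (SE, adjusted p = 3.51e-07) and -0.17 ± 0.0398 (SE, adjusted p = 0.00195). The small membrane subunit Kcne1l fell at 10 months only by the test (-0.36 ± 0.0829 SE, adjusted p = 0.00126); at 6 months it stood at -0.18. Kcnab3 rose at 6 months (0.41 ± 0.147 SE, adjusted p = 0.0356). Kcnab2, Kcnip1, Kcnip4 and Kcne4 were not called in Q140 mice at either age.

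The ether-a-go-go family (Kcnh) held large changes in both directions. Kcnh4, an Elk-type subunit, had 36.7, 56.4 and 65 CPM in wild types at 6 months against 26.3, 33.2 and 37.7 in Q140 mice, and 36, 50.8 and 61.8 against 26, 31.5 and 38.8 at 10 months. At each age 7 of 8 Q140 libraries were below every wild type. Its log2 fold changes were -0.78 ± 0.0889 (SE, adjusted p = 4.08e-09) and -0.64 ± 0.184 (SE, adjusted p = 0.0107), a 1.72-fold and a 1.56-fold lower level. Kcnh3, another Elk-type subunit, had 96.4, 124 and 147 CPM in wild types and 75.4, 89.9 and 104 in Q140 mice at 6 months, where 6 of 8 Q140 libraries lay below every wild type (-0.48 ± 0.0634 SE, adjusted p = 9.21e-08). At 10 months it had 73.4, 108 and 126 and 77.8, 88.2 and 108 CPM with the groups overlapping fully (-0.24, adjusted p = 0.377). Its exons overlap those of Mcrs1 on the other strand, as those of Kcnab1, Kcnk2, Kcnq5 and Kcnj13 overlap other genes, and whether the counting used strand is not given in the sources used here.

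Kcnh5, an Eag-type subunit, was lower in level, and its groups did not overlap at 10 months. Wild types then had 4.57, 5.7 and 6.89 CPM and Q140 mice 2.56, 3.39 and 3.94, with all 8 Q140 libraries below every wild type (-0.76 ± 0.0869 SE, adjusted p = 9.76e-09). At 6 months the values were 3.89, 5.8 and 9.68 and 3.06, 4.17 and 4.8 CPM, the groups overlapped and the change was -0.50 ± 0.127 (SE, adjusted p = 0.00257). Kcnh8, a further Elk-type subunit of very low level, moved the other way. It had 0.505, 0.691 and 1.06 CPM in wild types and 0.718, 0.924 and 1.34 in Q140 mice at 6 months (0.43 ± 0.152 SE, adjusted p = 0.0364), and 0.492, 0.703 and 0.946 against 0.871, 1.08 and 1.45 at 10 months (0.62 ± 0.142 SE, adjusted p = 0.00147). Here 2 of 8 and then 6 of 8 Q140 libraries exceeded every wild type. Kcnh1, Kcnh2, Kcnh6 and Kcnh7 were not called in Q140 mice.

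**Figure D3:**
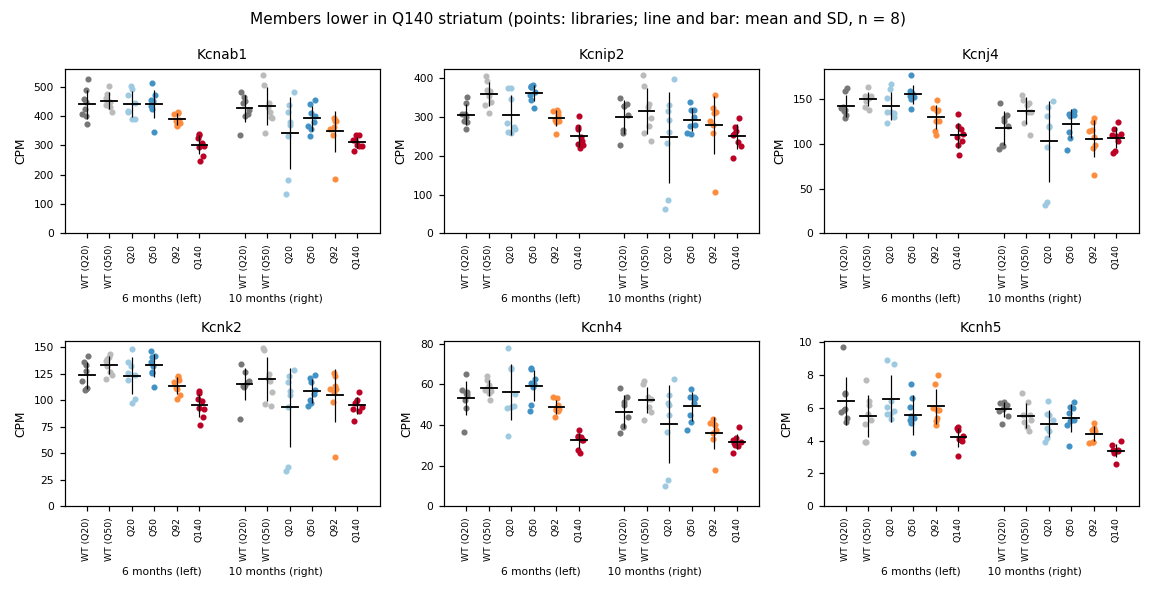
CPM of 6 members in each library by group at 6 and 10 months, with the mean and SD of 8 libraries. Q140 libraries of Kcnab1 lie below every wild type at 6 months, and those of Kcnh5 do so at 10 months; the lowest points at 10 months in the other 5 panels belong to 2 Q20 libraries and 1 Q92 library.

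The promoters of Kcnh4, which fell, and Kcnh8, which rose, are printed because these paralogs moved in opposite directions. They are the 250 bases before the gene start in RefSeq, on build GRCm38.p6, with each CG dinucleotide in capitals. Kcnh4 lies at chr11:100759779-100760028 on the minus strand and Kcnh8 at chr17:52602459-52602708 on the plus strand.
Kcnh4: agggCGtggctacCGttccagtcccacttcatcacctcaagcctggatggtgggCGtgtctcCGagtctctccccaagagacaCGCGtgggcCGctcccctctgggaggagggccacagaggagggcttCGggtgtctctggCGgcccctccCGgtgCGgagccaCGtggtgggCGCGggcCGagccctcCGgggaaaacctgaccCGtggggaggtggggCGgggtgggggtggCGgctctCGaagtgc
Kcnh8: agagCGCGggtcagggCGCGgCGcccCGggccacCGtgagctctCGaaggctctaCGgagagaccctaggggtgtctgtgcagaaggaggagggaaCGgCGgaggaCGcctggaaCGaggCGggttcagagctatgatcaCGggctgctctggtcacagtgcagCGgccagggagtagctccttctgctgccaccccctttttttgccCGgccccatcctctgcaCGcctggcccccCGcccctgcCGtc
Each window holds 20 CG dinucleotides, against a median of 10 in the 59 members with an entry and 6 in 27025 genes. Among the members with an entry, those that rose in Q140 mice at either age (5 of 9) had a median of 20, from 1 to 31. Those that fell (19 of 27) had a median of 8, from 0 to 35, so the ranges overlapped. Both windows contain GGGCGG on either strand, as did 52.5% of the 59 members and 32.9% of all genes. TATAAA was in 3.39% of members and 13% of all genes. TGACGTCA and GCGTGGGCG were in none of the 59 members' windows and in 1.62% and 0.54% of all genes. These letters were searched on both strands, and GGGCGG shares letters with GCGTGGGCG.

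Of the M-channel family, Kcnq5 fell at 6 months. It had 103, 122 and 144 CPM in wild types and 74.9, 96.6 and 106 in Q140 mice at 6 months, with 7 of 8 below every wild type (-0.41 ± 0.0619 SE, adjusted p = 1.5e-06). At 10 months it had 85, 117 and 160.4 and 78.1, 95.3 and 106, and 2 of 8 lay below (-0.37, adjusted p = 0.0789). Kcnq3, another M-channel subunit, fell at 10 months, from 277, 315 and 386 CPM in wild types to 222, 270.5 and 316 in Q140 mice (-0.26 ± 0.0565 SE, adjusted p = 0.000802). At 6 months it had 253, 326 and 359 and 292, 304 and 324 and the difference was -0.07 (adjusted p = 0.31).

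Among the voltage-gated pore subunits, Kcnd2 fell slightly at both ages. Wild types had 174, 209 and 235 CPM at 6 months and 178, 213 and 253 at 10 months, and Q140 mice 165, 189 and 207 and 167, 179.9 and 206. The groups overlapped at both ages, with every Q140 library under the wild-type median (-0.17 ± 0.0502 SE, adjusted p = 0.0111, and -0.20 ± 0.0726 SE, adjusted p = 0.0412). Kcna4, an A-type subunit of axons, had 61.9, 73.7 and 85.9 CPM in wild types and 55.8, 63.9 and 72 in Q140 mice at 6 months (-0.22 ± 0.0571 SE, adjusted p = 0.00342). At 10 months its values were 53.8, 73 and 91 and 51.4, 66.3 and 72.4, and the difference of -0.17 did not pass. Kcna1, which sits at axons and their initial segments, fell at 10 months (-0.20 ± 0.0528 SE, adjusted p = 0.00511) and stood at -0.01 at 6 months. Kcna2, its usual partner, was not called at either age (0.32 and -0.33, adjusted p = 0.095 and 0.111). Kcnb2, a delayed rectifier, fell at both ages and Kcna5 at 6 months. Kcna3, Kcnc1 and Kcnc2 rose at 6 months and were not called at 10 months.

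Of the silent subunits, Kcng1 rose the most. It had 24.8, 30.2 and 39.9 CPM in wild types and 33.3, 42.4 and 46.9 in Q140 mice at 6 months, and 20.2, 25.6 and 32.4 and 32.1, 42.7 and 50.8 at 10 months. Every Q140 library lay above the wild-type median, and 6 of 8 and then 7 of 8 lay above every wild type. The log2 changes were 0.43 ± 0.0702 (SE, adjusted p = 7.89e-06) and 0.72 ± 0.144 (SE, adjusted p = 0.000294). Kcns1 fell at both ages. Kcnf1 (14.4 ± 1.81 FPKM in wild types), the silent subunit of highest level, stood at -0.05 and -0.06, with adjusted p = 0.599 and 0.55. Kcns2 and Kcnv1, the leading genes of their subfamilies, were not called (-0.15 and -0.16 at 6 months, adjusted p = 0.12 and 0.078).

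Of the inward rectifiers, Kcnj4 fell at 6 months. Its libraries ran 129, 145 and 163 CPM in wild types and 87.5, 109.7 and 133 in Q140 mice, and 7 of 8 Q140 libraries were below every wild type (-0.42 ± 0.0584 SE, adjusted p = 3.65e-07). At 10 months the values were 93.9, 130.4 and 154 and 89.7, 109 and 124, 2 of 8 lay below, and the difference of -0.26 did not pass (adjusted p = 0.29). Kcnj2, which like Kcnj4 forms strong inward rectifiers of striatal neurons, stood at -0.04 and -0.06 (adjusted p = 0.744 and 0.842). Astrocytic Kcnj10 was not called (0.15 and -0.30, adjusted p = 0.182 and 0.0713). Kcnj5, a G-protein-gated subunit of low level, fell at 10 months (-0.50 ± 0.155 SE, adjusted p = 0.0174). Kcnj13 had the largest change of any member at 6 months, -1.19 ± 0.412 (SE, adjusted p = 0.0299), at a level of 0.11, 0.448 and 2.21 CPM in wild types and 0.0547, 0.21 and 0.527 in Q140 mice. It is abundant in choroid plexus, whose list had lowest, median and highest levels of 1.17, 1.46 and 2.27 log2 CPM in those Q140 libraries against 1.13, 1.48 and 2.29 and 1.08, 1.70 and 3.17 in the wild types. With that level as a covariate, chosen after the data were seen, the Kcnj13 change was -0.76 (adjusted p = 0.00958). At 10 months Kcnj13 was not called. Its Q140 effect at 10 months minus that at 6 months was 1.76 ± 0.663 (SE, adjusted p = 0.126, from the fit of all 96 libraries). That difference, opposite in sign to the fall, did not pass. Kcnj14 fell at 6 months (-0.26 ± 0.0822 SE, adjusted p = 0.0175), and the other 7 Kcnj genes were not called.

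Of the tandem-pore channels, Kcnk2, a leak channel opened by stretch and lipids, fell at 6 months. Wild types had 109.6, 129.6 and 143 CPM and Q140 mice 76.6, 95.5 and 109, with all 8 Q140 libraries below every wild type (-0.44 ± 0.062 SE, adjusted p = 5.16e-07). At 10 months they had 82.6, 117 and 149.6 and 80.4, 95.5 and 108, and 1 of 8 lay below (-0.31, adjusted p = 0.17). Kcnk1 had a small fall at both ages (-0.14 ± 0.0314 SE, adjusted p = 0.000634, and -0.20 ± 0.0316 SE, adjusted p = 5.98e-06). Kcnk10 (-0.41 ± 0.126 SE, adjusted p = 0.0184) and Kcnk13 fell at 10 months. None of the 10 rose.

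Of the genes grouped with activated channels, Kcnu1 rose at both ages, from 2.27, 2.7 and 3.47 CPM in wild types to 2.97, 3.59 and 3.88 in Q140 mice at 6 months (0.37 ± 0.078 SE, adjusted p = 0.0004) and from 2.11, 2.65 and 3.54 to 3.16, 3.58 and 5.05 at 10 months (0.47 ± 0.0867 SE, adjusted p = 8.02e-05). It is known as the sperm channel and is not itself opened by calcium or sodium. Kcnt1 fell at 6 months (-0.23 ± 0.064 SE, adjusted p = 0.00543), and Kcnn2 (-0.19 ± 0.0573 SE, adjusted p = 0.0133) and Kcnmb2 (-0.63 ± 0.214 SE, adjusted p = 0.0317) fell at 10 months. The large-conductance channel Kcnma1 (0.08 and -0.23), the small-conductance channel Kcnn3 (-0.02 and -0.26) and the accessory gene Kcnmb4 (0.08 and 0.15) were not called, with adjusted p-values from 0.0501 to 0.882. Kcnrg, a regulator of channel assembly, rose from 0.303, 0.468 and 0.849 to 0.506, 0.729 and 0.976 CPM at 6 months (0.54 ± 0.154 SE, adjusted p = 0.00795) and from 0.247, 0.494 and 0.732 to 0.537, 0.696 and 0.845 at 10 months (0.47 ± 0.15 SE, adjusted p = 0.021), with 2 and then 3 of 8 Q140 libraries above every wild type. The antisense transcripts Kcnmb4os2 and Kcnd3os were not called, and without strand their reads cannot be told apart from those of the genes they overlap.

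**Figure D4:**
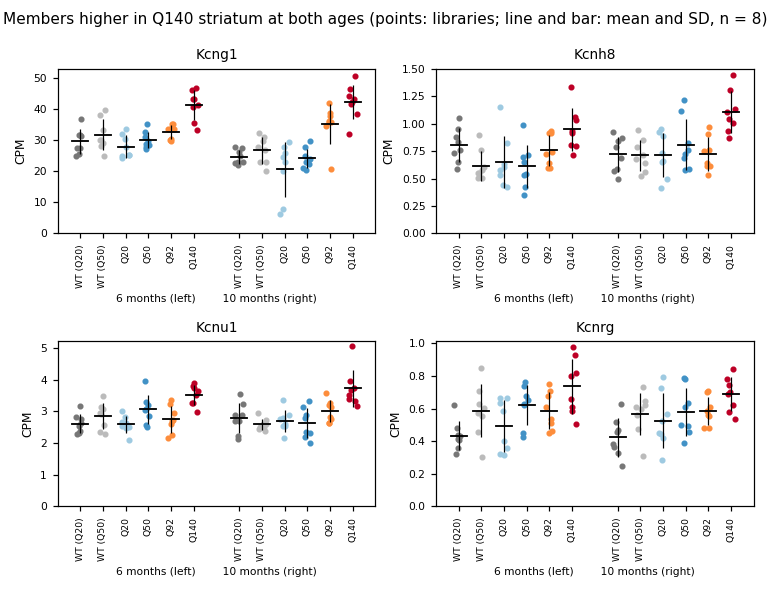
CPM of 4 of the 5 members that rose in Q140 mice at both ages, in each library by group at 6 and 10 months, with the mean and SD of 8 libraries. For Kcng1, 7 of 8 Q140 libraries lie above every wild type at 10 months.

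Several Q140 calls did not hold when 1 library was left out. At 6 months Kcnc2 did not pass without Q140 F1, F3, M1 or M3, Q20-housing wild type F4 or M4, or Q50-housing wild type F3 (adjusted p up to 0.154). Kcnc1 did not pass without Q140 F3, M1, M3 or M4, Q20-housing wild type F4, M3 or M4, or Q50-housing wild type F3 (up to 0.124). Kcnab3 did not pass without Q140 F3, M1, M3 or M4, Q20-housing wild type F4 or M4, or Q50-housing wild type F2 or M3 (up to 0.11). Kcnh8 did not pass without Q140 F3, M2, M3 or M4, Q20-housing wild type F1 or M2, or Q50-housing wild type F1 or F3 (up to 0.121). Kcnj13 did not pass without Q140 F1, F3, M2 or M4, Q20-housing wild type M3 or Q50-housing wild type M1 (up to 0.0703). At 10 months Kcnd2 failed in 12 of 48 such fits (without Q140 F1, F2, M2, M3 or M4, Q20-housing wild type F2, F3, F4, M1 or M3, or Q50-housing wild type F2 or M4, up to 0.0857) and Kcnmb2 without Q140 F4, M1, M3 or M4 or Q50-housing wild type F4 (up to 0.0788). Kcnj5 and Kcnrg failed without Q140 M1 (0.0502 and 0.0584) and Kcnk10 without Q140 M4 (0.0598). No other value given here for a member called in Q140 mice lost its call in this way, but some called members, among them Kcnb2, Kcnk13, Kcns1, Kcna3 and Kcna5, were not followed through these fits. Without the low-count filter Kcnab3, Kcnc1, Kcnc2, Kcnh8 and Kcnj13 at 6 months and Kcnd2 and Kcnmb2 at 10 months did not pass (adjusted p from 0.05 to 0.0651). With limma on log2(FPKM + 1) Kcnc2, Kcnj13 and Kcnt1 at 6 months and Kcnd2, Kcnj5, Kcnk10, Kcnmb2 and Kcnn2 at 10 months did not (from 0.0554 to 0.0761). With the L number of the library name as a factor Kcnh8 and Kcnj14 at 6 months and Kcnj5, Kcnk10, Kcnmb2 and Kcnn2 at 10 months did not (from 0.0678 to 0.168). The calls of Kcnc1, Kcnc2, Kcnab3, Kcnd2 and Kcnb2 at 6 months and of Kcnk10, Kcnk13, Kcnn2 and Kcnmb2 at 10 months were also lost with the thalamus list level described further on.

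Shorter repeats were compared next. In Q92 mice at 6 months 10 members passed (7 higher and 3 lower), or 12.3%, against 5.44% of all genes (3.35% higher and 2.09% lower). The 3 that fell were Kcnab1 (-0.20 ± 0.0582 SE, adjusted p = 0.0376), Kcnh3 (-0.21 ± 0.0626 SE, adjusted p = 0.0429) and Kcnip3 (-0.14 ± 0.0374 SE, adjusted p = 0.023), which also fell in Q140 mice of that age; both comparisons use the same wild types. Kcnab1 lost its call in 10 of 48 fits that left out 1 library and Kcnh3 in 15. Those that rose included Kcnc1 (0.32 ± 0.0833 SE, adjusted p = 0.0208), Kcnc2 (0.85 ± 0.221 SE, adjusted p = 0.0209), Kcna2, Kcnab3, Kcnh2 and Kcnj12. With the thalamus list level described further on as a covariate, against the wild types of the Q20 housing alone or against Q20 mice the count was 0, and against those of the Q50 housing alone it was 25. Shares of all genes in those fits are not given here. Leaving out 1 library moved the count of 10 to between 0 and 18, and that of all genes from 943 to between 214 and 1202. Members numbered 0 without the Q92 libraries F2 or F3 (all genes 214 and 281), 1 without M1 (404) and 4 without F4 (389). There were 16 without M3 (1182) and 18 without the wild-type library M1 of the Q50 housing (1109). At 10 months 1 member, Kcnh5, passed in Q92 mice (-0.38 ± 0.0846 SE, adjusted p = 0.0214), against 0.422% of all genes. Its libraries were 3.85, 4.56 and 5.06 CPM, all below the wild-type median of 5.7. It did not pass when the Q92 library F2, F4 or M2 was left out. Without the 3 libraries that stood apart Kcnh5 was at -0.38 (adjusted p = 0.0101), and Kcng1 (0.52 ± 0.0677 SE, adjusted p = 4.96e-06) and Kcnh4 (-0.36 ± 0.0924 SE, adjusted p = 0.0423) passed as well.

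In Q50 and Q20 mice no member passed at either age with edgeR, DESeq2 or limma. At an unadjusted p under 0.05, 1 member each was found in Q50 mice at 6 and 10 months, 0 in Q20 mice at 6 months and 25 in Q20 mice at 10 months, or 5 without the 2 Q20 libraries and 1 Q92 library that stood apart. Of all genes, 0.0634% and 0.0636% passed in Q50 mice and 0.0231% and 0.0405% in Q20 mice. Between the wild-type groups of different housing no member passed with edgeR (0% of all genes at 6 months and 0.347% at 10 months), although 25 members at 6 months and 7 at 10 months had an unadjusted p under 0.05. DESeq2 called 3 members between them at 6 months and 0 at 10 months, and limma 0 at both ages. The shares of all genes given here are at the adjusted threshold. Those at an unadjusted p under 0.05 are not given, so the unadjusted member counts cannot be set against them.

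Over the 32 knock-in libraries of 6 months, 21 members followed CAG length (6 rising and 15 falling), 25.9%, against 17.3% of all genes (7.83% rising and 9.52% falling). Each CAG length had its own group of mice, so length cannot be told apart from housing or other differences between those groups. Slopes are given for 120 CAG units, the span from Q20 to Q140. Kcng1 rose by 0.55 ± 0.0681 (SE, adjusted p = 8.33e-07). Kcnab1 fell (-0.56 ± 0.0719 SE, adjusted p = 1.34e-06), as did Kcnh4 (-0.83 ± 0.124 SE, adjusted p = 2.07e-05), Kcnip3 (-0.29 ± 0.041 SE, adjusted p = 4.83e-06), Kcnq5 (-0.39 ± 0.0709 SE, adjusted p = 0.000169) and Kcnh3 (-0.50 ± 0.091 SE, adjusted p = 0.000189). The Kcnab1 medians were 430.5, 449, 385 and 303 CPM in Q20, Q50, Q92 and Q140 mice. For Kcnh4 they were 52.4, 60.5, 47.9 and 33.2 CPM.

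At 10 months 37 members followed CAG length (6 rising and 31 falling), 45.7%, against 24% of all genes (12.6% rising and 11.4% falling). Small p-values were those of Kcng1 (1.10 ± 0.181 SE, adjusted p = 6.09e-05), Kcnh5 (-0.62 ± 0.108 SE, adjusted p = 0.000103), Kcnn2 (-0.40 ± 0.0701 SE, adjusted p = 0.000115), Kcnk1 (-0.21 ± 0.0376 SE, adjusted p = 0.000154) and Kcne1l (-0.50 ± 0.0941 SE, adjusted p = 0.000295). Kcnc2 and Kcnc1 fell, with slopes of -1.45 and -0.61. Kcnh4 and Kcnab1, which fell in Q140 mice, did not pass (-0.48 and -0.19, adjusted p = 0.131 and 0.426). With the thalamus list level as a covariate 12 members followed CAG length at this age; Kcnc2 and Kcnc1 were not among them (-0.04 and -0.08, adjusted p = 0.829 and 0.592), and Kcnh4 and Kcnab1 passed (-1.0003 and -0.55, adjusted p = 0.00292 and 0.0226). Without the 3 libraries that stood apart, a choice made after the data were seen, 45 members followed CAG length (7 rising and 38 falling), 33 of them among the 37. Kcnh4 (-0.72 ± 0.0928 SE, adjusted p = 1.17e-06) and Kcnab1 (-0.38 ± 0.0617 SE, adjusted p = 3.18e-05) then passed, Kcng1 was at 0.89, Kcnh5 at -0.73, Kcnn2 at -0.34, Kcnk1 at -0.23, Kcne1l at -0.47, Kcnc2 at -1.09 and Kcnc1 at -0.45, all with adjusted p-values of 0.00763 or less. Kcnc4, Kcnip4, Kcnj3 and Kcnj9 lost their calls (adjusted p from 0.0554 to 0.0969). The 37 that then passed in Q140 mice (5 higher and 32 lower) included all 22 of the fit with them. Shares of all genes for the trend with the thalamus level or without the 3 libraries are not given here. The counts of 12 and 45 therefore cannot be set against the 24%.

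The level of a list of 10 thalamus genes moved with many members. Its lowest, median and highest libraries at 6 months were 3.21, 3.52 and 4.79 log2 CPM in wild types of the Q50 housing, 3.58, 5.28 and 5.46 in those of the Q20 housing, 3.05, 3.44 and 5.11 in Q50 mice, 4.24, 5.54 and 6.22 in Q92 mice and 3.44, 5.18 and 6.27 in Q140 mice. At 10 months they were 4.56, 6.16 and 7.41 in Q20 mice and 3.10, 3.84 and 5.65 in Q140 mice, with 3.31, 4.92 and 6.57 and 3.21, 4.99 and 6.33 in the wild types. All 10 list genes were tested; 5 rose in Q140 mice at 6 months and 1 fell at 10 months. With this level added to the fit of each age, its own term passed for 45 of 81 members at 6 months (26 rising with it and 19 falling), 55.6%, against 20.6% of all genes. At 10 months it passed for 54 (31 and 23), 66.7%, against 47% of all genes. At both ages 25 members rose and 19 fell with it, and none changed direction. How many of all genes did so is not given here.

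Kcnc2 followed that level most steeply of all members at 6 months, by 0.63 ± 0.0374 (SE, adjusted p = 9.44e-18) log2 units for each log2 unit of the list, and by 0.71 ± 0.0213 (SE, adjusted p = 6.96e-30) at 10 months. Kcnk4, Kcng4, Kcne4, Kcnab3, the G-protein-gated Kcnj3 and Kcnj9, and astrocytic Kcnj10 (0.23 ± 0.0203 SE, adjusted p = 3.74e-13 at 10 months) rose with it at both ages. The members that fell with it included Kcnj4 (-0.13 ± 0.0167 SE, adjusted p = 2.27e-08 at 6 months, and -0.23 ± 0.0471 SE, adjusted p = 8.75e-05 at 10 months), Kcnj2, Kcnip2, Kcnk2, Kcnh3, Kcnh4, Kcnab1 and Kcnq5. Families were divided: of 13 Kcnj genes 6 rose and 2 fell with it at each age, and of the 15 Kcna to Kcnd genes 8 rose and 6 fell at 10 months.

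**Figure D5:**
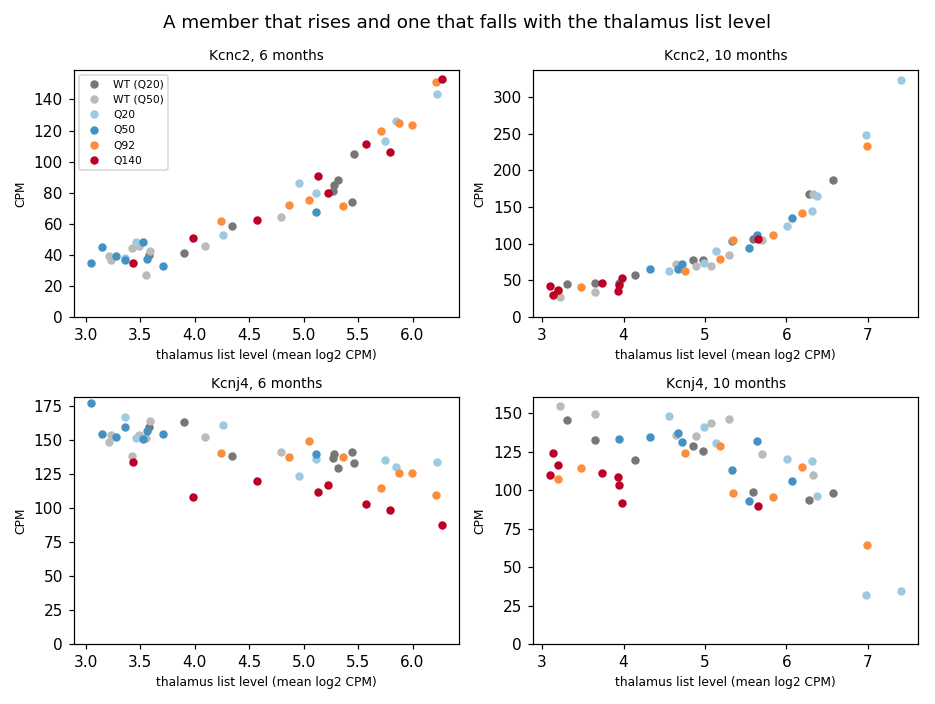
CPM of Kcnc2 and Kcnj4 against the mean log2 CPM of 10 thalamus genes in the 48 libraries of each age, coloured by group. Kcnc2 rises with the level across all groups, and Kcnj4 falls with it, with Q140 libraries below most others of like level.

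With the thalamus level in the fit, the Q140 results divided. At 6 months 25 members passed (6 higher and 19 lower, 23 of them among the 28), against 19.6% of all genes, and at 10 months 30 passed (6 higher and 24 lower, 18 of them among the 22), against 28.5% of all genes. The rises of Kcnc1, Kcnc2 and Kcnab3 at 6 months no longer passed; that of Kcnc2 went from 0.63 to 0.08 ± 0.0868 (SE, adjusted p = 0.588). At 10 months the Kcnc2 difference went from -0.85 to 0.01 ± 0.0673 (SE, adjusted p = 0.912). Falls were lost too. At 6 months Kcnd2 was then at -0.12 ± 0.0485 (SE, adjusted p = 0.0625) and Kcnb2 at -0.23 ± 0.0992 (SE, adjusted p = 0.0957). At 10 months Kcnmb2 went from -0.63 to -0.21 ± 0.132 (SE, adjusted p = 0.252), Kcnk10 from -0.41 to -0.24 ± 0.115 (SE, adjusted p = 0.117), Kcnn2 from -0.19 to -0.11 ± 0.0494 (SE, adjusted p = 0.0889) and Kcnk13 from -0.21 to -0.17 ± 0.0753 (SE, adjusted p = 0.0966). In contrast, 15 members now fell at both ages, among them Kcnj4, Kcnip2, Kcnk2, Kcnh3, Kcnq5, Kcna4 and Kcnt1, which had passed only at 6 months without it. How many of all genes fell at both ages in these fits is not given here. At 10 months Kcnj4 was then at -0.49 ± 0.142 (SE, adjusted p = 0.00735), Kcnip2 at -0.60 ± 0.155 (SE, adjusted p = 0.00285), Kcnk2 at -0.54 ± 0.132 (SE, adjusted p = 0.00164) and Kcnh4 at -0.91 ± 0.155 (SE, adjusted p = 1.77e-05). Kcng1, Kcnh8, Kcnrg and Kcnu1 rose at both ages with it as without it.

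The difference of the Q140 effect between ages passed for 1 member, Kcnc2 (-1.46 ± 0.399 SE, adjusted p = 0.0431, from the fit of all 96 libraries), against 1.27% of all genes. Its libraries had 26.8, 45.8 and 105 CPM in wild types and 34.9, 85.2 and 153 in Q140 mice at 6 months, and 27.8, 74.8 and 187 and 30.6, 42.4 and 107 at 10 months, with overlap at both ages. The call ended without the low-count filter (-1.48, adjusted p = 0.0754), with limma (-1.17, adjusted p = 0.0889), with the replicate block (-1.31, adjusted p = 0.0789) and with the thalamus level as a covariate, where the difference was -0.05 (adjusted p = 0.854). For no member did the Q140 effect differ between females and males with edgeR, DESeq2 or limma (0% of all genes at both ages). At an unadjusted p under 0.05 there were 1 member at 6 months and 4 at 10 months. The share of all genes at that threshold is not given. Between 6 and 10 months 3 members fell in wild types, Kcnip3 (-0.18 ± 0.0313 SE, adjusted p = 1.26e-05), Kcnmb4 (-0.17 ± 0.0562 SE, adjusted p = 0.036) and Kcnj14 (-0.21 ± 0.0706 SE, adjusted p = 0.0412), against 9.55% of all genes. Of these Kcnip3 passed in every other fit run. Kcnmb4 and Kcnj14 did not pass without the low-count filter (adjusted p = 0.0595 and 0.0705), with limma (0.0541 and 0.0509) or with the replicate block (0.612 and 0.42), and Kcnj14 did not with DESeq2 (0.0551) or the thalamus level (0.0693). The library names of the 2 ages carry separate number series, so age cannot be told apart from what those numbers stand for. Finally, 21 members passed in none of the comparisons between groups, ages or sexes or the trends as first fitted, without the thalamus level and with all libraries, among them Kcnj2, Kcnma1, Kcnn3 and Kcnf1. How many of all genes passed in none is not given here.

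Of other genes that act with these channels, 3 of 17 tested partners outside the Kcn symbols rose in Q140 mice and 3 fell at 6 months, and 2 rose and 3 fell at 10 months. The scaffold gene Dlg4 fell at 6 months (-0.26 ± 0.0397, adjusted p = 1.72e-06), and at 10 months Lrrc55, an accessory gene of large-conductance channels, rose (0.54 ± 0.104, adjusted p = 0.000153). Of 13 receptors and regulators that act on potassium channels, 9 fell at 6 months and 7 at 10 months and none rose. The list shares Adora2a, Chrm4, Drd1 and Drd2 with the projection neuron marker lists, and those 4 fell at both ages. Of the other 9 genes 5 fell at 6 months and 3 at 10 months. The smallest p-values were those of Cnr1 (-0.91 ± 0.0756, adjusted p = 8.04e-13) and Adora2a (-0.77 ± 0.0717, adjusted p = 1.71e-11) at 6 months. Of 4 HCN channels 2 rose at 6 months (Hcn3 by 0.27 ± 0.055, adjusted p = 0.000237, and Hcn4 by 0.51 ± 0.184, adjusted p = 0.0375) and 1 fell at 10 months. Of 9 sodium channel genes 1 rose and 3 fell at 6 months and 2 rose and 2 fell at 10 months. The beta subunit Scn4b fell at both ages (-0.99 ± 0.0823 and -1.23 ± 0.16) and Scn9a rose at both (0.63 ± 0.0894 and 0.65 ± 0.104), with adjusted p-values of 8.15e-13, 2.14e-07, 5.16e-07 and 7.86e-06. Of 18 calcium channel genes, 2 rose and 6 fell at 6 months and 1 rose and 4 fell at 10 months, with Cacng3 (-0.47 ± 0.067, adjusted p = 4.61e-07) and Cacnb3 (-0.36 ± 0.053, adjusted p = 8.05e-07) falling at 6 months. Median log2 changes were -0.36 and -0.43 for the receptor list and -0.17 and -0.26 for 13 members of known striatal or glial role, against 0.0079 and 0.0053 for all genes. The errors are standard errors and all tests here are edgeR's.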

How the data were processed

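Messenger RNA of mouse striatum was sequenced in 96 libraries, 8 in each of 12 groups. The authors deposited estimated counts per gene (27.7% of non-zero values are not whole) and FPKM values, which are scaled by library size and gene length. CASAVA 1.8.2 is named in the submitters' processing notes. How reads were aligned and quantified, on which genome build and with what strand setting, is not given in the sources used here. Gene symbols were found for 37607 of 39179 IDs.

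The estimated counts were rounded and tested with edgeR 4.0.16 (quasi-likelihood, robust, TMM, filterByExpr) in R 4.3.3, with Benjamini-Hochberg adjustment over all genes and a threshold of 0.05. One fit per age held 48 libraries with group and sex. For Q20 and Q50 mice the reference was the wild-type group of the same housing, and for Q92 and Q140 mice the average of the 2 wild-type groups. Trends used the 32 knock-in libraries of an age. DESeq2 1.42.0 and limma 3.58.1 were alternatives. CPM is TMM-scaled in the text, and the member threshold used CPM of plain library totals. A list's level is its mean log2 CPM. The procedure was tested on simulated data. The members, lists and tests were chosen with earlier results of these data known, and the test of the thalamus term was added after seeing them. Values are given for the 12 members of largest called change in Q140 mice at each age, up to 6 of smallest p in other comparisons, 13 of known role, the highest of each subfamily, and the 2 genes of smallest p of each other list described by name. Counts limit the precision of members near 1 CPM. The other fits that were tried are described in the closing section. Some members and sequences are counted in the totals but are not reported here.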

Additional observations from a re-analysis of the deposited data

Results flagged for a closer look

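Single libraries stood apart in 14 of 156 tests, of 13 members in each group of 8, with Dixon's ratio (the gap to the next library over the group's range, above the 95% critical value). Chance flags about 1 in 20 independent tests. These tests reuse the same libraries for each member and are not independent, so the 14 cannot be set against that rate. The 10-month Q92 library F1, one of the 3 libraries of low projection neuron level, was the lowest of its group for 6 members. Its Kcnab1 level was 184.1 CPM against 334 in the next library (ratio 0.724). Kcnh4 had 17.97 against 32.9 CPM (0.596), Kcnk2 46.6 against 98.0 (0.646), Kcnd2 150.1 against 194 (0.555), Kcnip2 108 against 260.0 (0.608) and Kcna4 42.8 against 67.5 (0.620).

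The 10-month wild-type library M4 of the Q20 housing was the lowest for Kcnk2 (82.6 against 113 CPM, 0.587), Kcnq5 (85.0 against 113, 0.755) and Kcna4 (59.7 against 69.3, 0.582); its thalamus list level was 6.28 log2 CPM. For Kcnq3 the 10-month Q20 library F4 was lowest (238 against 305 CPM, 0.746) and the wild-type library M3 of the Q20 housing highest (386 against 337, 0.553). At 6 months Kcnh5 was low in Q140 M2 (3.06 against 3.98 CPM, 0.5263) and high in Q20-housing wild type M3 (9.68 against 6.87, 0.613), and Kcnh3 was low in Q50 M4 (109 against 128, 0.556). The part of the list levels in these values was not tested.

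The Q140 effect on Kcnc2 differed between the ages by -1.46 on the log2 scale in edgeR's test of the difference (adjusted p = 0.0431). It did not pass with limma (-1.17, adjusted p = 0.0889), without the low-count filter (-1.48, 0.0754), with the replicate block (-1.31, 0.0789) or with the thalamus level as a covariate (-0.05, 0.854).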

How the results depend on the processing

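Of the 95 called values of single members, 1 lost its call under RLE scaling, 2 under DESeq2, 5 with the replicate block, 13 without the low-count filter, 12 with limma on log2(FPKM + 1) and 17 with it on unfiltered FPKM, 15 with the L number of the library name, 30 with the thalamus level, 29 with thalamus and cortex levels, 58 in females and 52 in males. Of Q140 and Q92 calls, 22 were lost and 31 kept against Q20 mice, 19 and 34 against Q20-housing wild types, and 12 and 41 against Q50-housing wild types; not every value has each of these fits. Leaving out 1 library ended a call in 137 of 3760 fitted values and reversed none. These values, like the 95, are of members given values by the rule stated above, which leaves out some called members, among them Kcnb2, Kcnk13, Kcns1, Kcna3 and Kcna5. With the thalamus level alone, or with the cortex level too, the 10-month trend of Kcnab3 went from -0.87 to 0.0723 and 0.0429 and no longer passed (adjusted p = 0.742 and 0.878). This loss, with a change of sign, comes on top of the 30 and 29 above, which count losses with the sign kept.

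Counts of called members moved by more than 1.5 times as follows. Q140 at 6 months: 12 in females only and 12 in males only, against 28. Q140 at 10 months, against 22: 2 in females, 12 in males, 37 without the 3 libraries of low projection neuron level, 43 against Q20 mice and 13 against Q50-housing wild types. Q92 at 6 months, against 10: 18 with DESeq2, 5 with limma on unfiltered FPKM, 0 with the thalamus level, with thalamus and cortex levels, in males, against Q20 mice or against Q20-housing wild types, and 25 against Q50-housing wild types. Q92 at 10 months, against 1: 2 with the thalamus level, 3 with thalamus and cortex levels, 0 with the L number of the library name, in females, in males or against Q50-housing wild types, 3 without the 3 libraries, 2 against Q20 mice and 2 against Q20-housing wild types. Wild-type cohorts: 3 with DESeq2 at 6 months and 1 with the thalamus level at 10 months, against 0. Trend at 6 months: 13 in females and 2 in males, against 21. Trend at 10 months: 12 with the thalamus level, 9 with thalamus and cortex levels, 2 in females and 17 in males, against 37. Q140 effect by age: 0 without the low-count filter, with limma, with the replicate block or with the thalamus level, and 5 with DESeq2, against 1. Age in wild types: 1 without the filter and 1 with the replicate block, against 3. The cause was not tested, and fits of 1 sex hold fewer libraries. Shares of all genes in these fits are not given here, so the counts describe the members alone. With limma on FPKM the Q140 calls were 12 higher and 15 lower at 6 months and 6 higher and 10 lower at 10 months.

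Leaving out each library gave 23 to 31 called members in Q140 mice at 6 months, 18 to 27 at 10 months, 0 to 18 in Q92 mice at 6 months, 0 to 1 at 10 months, and 18 to 23 and 31 to 39 for the trends. In the same order, all genes called ran 3438 to 4282, 2633 to 3622, 214 to 1202 and 42 to 117. For the trends they ran 2444 to 3276 and 3504 to 4376. Deviations of same-numbered libraries had a median correlation of 0.0329 at 6 months and -0.047 at 10 months, and 40.8% and 35% of 120 pairs were over 0.1, against 31.1% and 38.6% of 360 pairs of other numbers. Pairs of other numbers had medians of -0.0253 and 0.00494. The labels give no shared source, so the numbers were not taken to pair the libraries. A demand that every pair be over 0.1 could hardly be met, so these correlations do not decide whether they do. The replicate block gave 31 and 21 members in Q140 mice, 12 and 1 in Q92 mice, and 20 and 35 for the trends.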
